A study of Mus musculus with 4 samples.

Results

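The complement genes measured here were 8 components and regulators of the complement system, C1qa, C1qb, C1qc, C3, C4b, Cfb, Cfp and C3ar1. They were taken by symbol from the 17013 genes of the deposited tables, and all 8 were listed and passed the filter on low values. Complement is a cascade of plasma and locally made proteins that tags debris and microbes for uptake. C1q, which binds antibody complexes and dying cells, starts the classical pathway, and the alternative pathway amplifies the deposition of C3 through factor B and properdin. Macrophages make C1q themselves, and they carry receptors for the fragments that the cascade releases.

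Bulk RNA sequencing was performed on macrophages grown from the bone marrow of wild-type (WT) mice, which the methods describe as C57BL/6 males, by culture with M-CSF, the growth factor that drives monocytes to become macrophages. The cells sat on porous inserts over wells that held medium made from freeze-thawed abdominal fat of mice, and were harvested after 24 h. Both groups received artificial necrotic bone fluid (aNBF, made by freezing and thawing bone and marrow) in the inserts, and they differed in the medium below: the Con group (labelled FAT_con) was given the control medium, from the middle layer of the fat preparation, and the Fat group (labelled FAT_high) the medium from its top, fat layer, with 2 libraries each. The labels give the same treatment text for all 4 libraries, so the grouping rests on their titles, and the age of the mice is not stated. Nothing says that the replicates came from separate mice or cultures, so the p-values measure the spread between these libraries, which may be technical.

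The libraries held from 33573852 to 40785872 reads on genes, and 1 read was worth 0.0244 to 0.0295 CPM (the read count relative to library size, scaled by the authors). Differences are log2 fold changes, Fat minus Con, on the log2(CPM + 0.1) scale from limma, and a gene was called at an adjusted p-value under 0.05. Of the 12470 genes tested, 1122 were called (9.0%), 624 of them lower in Fat (5.0%) and 498 higher (3.99%), and the median log2 fold change of all tested genes was 0.01. All 6 macrophage markers were detected and passed the filter. They summed to 33076 and 30924 CPM in Con and to 25364 and 23981 CPM in Fat. Lyz2, the lysozyme of myeloid cells, made up most of this sum and was not called (log2 fold change -0.41, limma adjusted p = 0.209). Of the 6 markers Fcgr1 and Mertk were called lower, while Adgre1 (-0.19) and Csf1r (-0.21) were not called. Cd68 was not lower in Fat, with 778 and 870 CPM in Con and 892 and 864 CPM in Fat, and was not called (0.09). In bulk RNA, fewer cells of a type and less RNA per cell cannot be told apart, and the part of these markers in the results below was not tested.

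Of the 8 complement genes, 5 were called lower in Fat and none higher by limma, against 5.0% of all genes called lower. The 5 were the C1q chains C1qa, C1qb and C1qc, the central component C3 and the alternative pathway protease Cfb. C4b, Cfp and C3ar1 were not called. The 8 genes were chosen with earlier results of these data known, so these counts describe them and are not a test. In all 8 genes both Fat libraries lay below both Con libraries, a pattern that 26.2% of all tested genes had, and the opposite order, which 29.4% of all genes had, was seen in none of them. For C4b this order follows from the filter on low values. Without limma's mean-variance trend none of the 8 was called (adjusted p of 0.0831 to 0.113 for the 5). In that fit each of the 5 was lower in Fat with an unadjusted p under 0.05, as were 1400 of the 12470 genes tested. The quasi-likelihood test of edgeR on the recovered reads called 5 of the 8. The size of the difference varied widely among the 8 genes, from a log2 fold change of -2.17 for Cfb to -0.14 for C3ar1, and their median was -0.55.

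**Figure D1:**
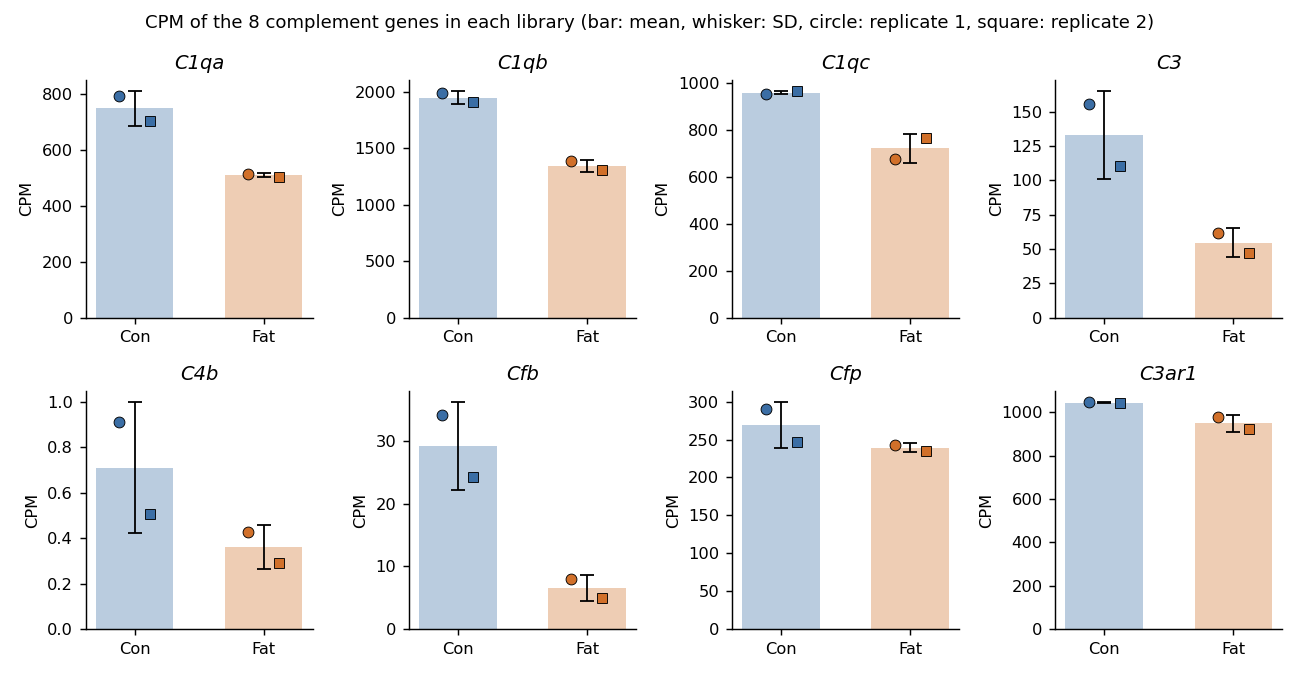
CPM of the 8 complement genes in each library, with bars for the mean, whiskers for the SD and points for the 2 replicates of Con and of Fat, each panel on its own axis from 0. Cfb and C3 stood at 22.2% and 40.9% of their Con means in Fat, the C1q chains at 68.0% to 75.2%, and the points of the groups did not overlap in any panel.

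C1q is built from 3 chains that are encoded by C1qa, C1qb and C1qc, and all 3 fell in Fat. C1qa measured 793 and 705 CPM in Con and 514 and 504 CPM in Fat. C1qb measured 1989 and 1908 CPM in Con and 1383 and 1306 CPM in Fat. C1qc measured 954 and 963 CPM in Con and 676 and 765 CPM in Fat. In each chain the lower Con library stayed well above the higher Fat library. C1qa fell by 0.55 on the log2 scale (SE 0.07, limma adjusted p = 0.00639) and C1qb by 0.54 (SE 0.08, limma adjusted p = 0.00815). C1qc, the chain with the smallest difference, fell by 0.41 (SE 0.08, limma adjusted p = 0.0191). The call of C1qc rested on Fat replicate 1, and without that library its log2 fold change was -0.33 with a limma adjusted p of 0.0635. With TPM in place of CPM it was not called either (limma adjusted p = 0.0705).

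The C1q transcripts were among the most abundant of these macrophages. On the TPM scale, which also corrects for gene length and so allows levels of different genes to be compared, C1qb measured 4098 and 3854 in Con and 2886 and 2722 in Fat. This placed C1qb 24th and 26th of all genes in the Con libraries and 32nd and 34th in the Fat libraries. C1qc ranked between 46th and 74th over the 4 libraries and C1qa between 58th and 106th. Together the chains took 0.377% and 0.354% of all reads in Con and 0.256% and 0.259% in Fat.

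The proportions of the chains to each other overlapped between the groups. The ratio of C1qb to C1qa within a library, on the TPM scale, was 2.56 and 2.76 in Con and 2.74 and 2.64 in Fat, with crossing ranges. On the log2 CPM scale the ratio differed by 0.02 (exact permutation test, two-sided p = 1). The ratio of C1qc to C1qa on the TPM scale was 1.23 and 1.40 in Con and 1.35 and 1.56 in Fat, again with overlap, and it differed by 0.14 on the log2 CPM scale (exact permutation p = 0.667, 0.889 after adjustment over 4 ratios). With 2 libraries against 2, such a test cannot give a p below 0.333.

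The genes of the C1q chains follow each other on mouse chromosome 4 in the order C1qb, C1qc and C1qa in the RefSeq annotation of GRCm38.p6. Promoter entries were found for 5 of the 8 genes, C1qb, C1qc, C3, Cfp and C3ar1. The 250 bases before the RefSeq start of the C1q genes with an entry are shown because both neighbours were called lower in Fat. The window before C1qb lies at chr4:136886201-136886450 and that before C1qc at chr4:136892915-136893164, both on the minus strand, and each sequence reads 5′ to 3′ toward the gene. Capitals mark matches on either strand to the NF-kB pattern (GGG, any 5 bases and CC), a pair of overlapping matches in each gene.
C1qb: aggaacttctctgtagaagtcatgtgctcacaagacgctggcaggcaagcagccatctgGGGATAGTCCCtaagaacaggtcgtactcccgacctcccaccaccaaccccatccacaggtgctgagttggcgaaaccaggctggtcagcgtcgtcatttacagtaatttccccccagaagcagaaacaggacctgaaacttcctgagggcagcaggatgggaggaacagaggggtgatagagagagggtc
C1qc: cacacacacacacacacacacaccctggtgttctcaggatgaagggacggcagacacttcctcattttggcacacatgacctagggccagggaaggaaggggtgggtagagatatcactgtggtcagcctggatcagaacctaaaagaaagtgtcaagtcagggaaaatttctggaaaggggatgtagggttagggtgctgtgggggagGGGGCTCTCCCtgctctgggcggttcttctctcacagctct
The matches stood 191 to 181 bases before the start of C1qb and 41 to 31 bases before that of C1qc. The pattern is loose, and 45.8% of 32817 mouse promoter windows of the same length held it.

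The proteases that C1q activates are encoded by C1ra and C1s1. C1ra measured 15.1 and 15.6 CPM in Con and 10.6 and 8.51 CPM in Fat, and it fell by 0.69 on the log2 scale (SE 0.12, limma adjusted p = 0.0156). Of the stretches of read length in the GENCODE vM21 transcripts of C1ra, 42.6% also occur in other genes, its near copy C1rb among them, so its reads are uncertain. Its call was lost with TPM (limma adjusted p = 0.0583) and without the mean-variance trend (0.0989). C1s1 measured 0.944 and 1.76 CPM in Con and 1.13 and 0.488 CPM in Fat, with overlap, and it was not called (log2 fold change -0.71, 95% interval -1.69 to 0.26). Stromal cells are a known source of C1r and C1s. The 6 fibroblast and stromal markers, all of them listed, summed to 614 and 638 CPM in Con and to 512 and 656 CPM in Fat, and 1 of them, Dcn, was called lower. Their part in the result was not tested.

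C3, on which all the activation pathways converge, measured 156 and 111 CPM in Con and 62.0 and 47.1 CPM in Fat. The Con replicates were further apart than for the C1q chains, but the lower of them was still well above both Fat libraries. C3 fell by 1.28 on the log2 scale (SE 0.17, 95% interval -1.68 to -0.88, limma adjusted p = 0.00726), from 133 ± 31.9 CPM to 54.5 ± 10.5 CPM (SD, n = 2 each). With TPM in place of CPM the limma adjusted p of C3 was 0.0504. The region before the start of C3 is shown because it was the one window of the 5 with a C/EBP match. It lies at chr17:57228137-57228386 of GRCm38.p6 on the minus strand, and capitals mark motif matches.
C3: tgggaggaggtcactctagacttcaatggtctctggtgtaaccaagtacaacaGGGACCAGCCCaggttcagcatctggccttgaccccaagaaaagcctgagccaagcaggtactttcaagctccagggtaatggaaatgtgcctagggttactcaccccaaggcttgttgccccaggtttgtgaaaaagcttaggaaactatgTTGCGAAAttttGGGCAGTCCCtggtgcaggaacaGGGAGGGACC
The C/EBP pattern TTGCNNAA was matched 45 to 38 bases before the start, as TTGCGAAA. Of all mouse promoter windows 9.57% held this pattern. The NF-kB pattern matched at 197 to 187, at 33 to 24 and at 10 to 1 bases before the start, where the first is an overlapping pair on opposite strands. All 5 windows held the NF-kB pattern. Neither the interferon-stimulated response element core (GAAA, any 2 bases and GAAA), present in 2.97% of all windows, nor the gamma-activated site TTCNNNGAA, present in 7.01%, was found in the 5 windows on either strand. A match is a description of these letters and not of binding.

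Cfb encodes factor B, the protease that joins C3b to form the convertase of the alternative pathway, and it had the largest difference of the 8 genes. Cfb measured 34.2 and 24.3 CPM in Con and 7.98 and 5.02 CPM in Fat. Even the lower Con library was several times the higher Fat library. Cfb fell by 2.17 on the log2 scale (SE 0.23, 95% interval -2.70 to -1.64, limma adjusted p = 0.00379), and its Con mean was 4.50-fold the Fat mean. Among all tested genes with a negative log2 fold change, this was the 16th largest difference. In GENCODE vM21, which may not be the annotation the authors counted on, 78.7% of the stretches of read length in Cfb are shared with Gm20547, a gene model that also holds 48.0% of those of the neighbouring gene C2. Whether Gm20547 was in the annotation used for counting, and how reads on both models were then assigned, is not given in the sources used here, so the share says only which reads could have been affected. C2, which plays the part of factor B in the classical pathway, lies next to Cfb on chromosome 17. It measured 1.65 and 1.81 CPM in Con and 1.98 and 1.0 CPM in Fat, overlapped between the groups and was not called (log2 fold change -0.27, 95% interval -0.99 to 0.44).

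The fitted fall of Cfb exceeded that of C3, the partner to which factor B binds. The ratio of Cfb to C3 within a library, on the TPM scale, was 0.410 in both Con libraries and 0.241 and 0.199 in the Fat libraries. The groups did not overlap, and on the log2 CPM scale the ratio differed by -0.89. Its exact permutation p was 0.333, the smallest that this design allows, and 0.667 after adjustment over the 4 ratios.

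**Figure D2:**
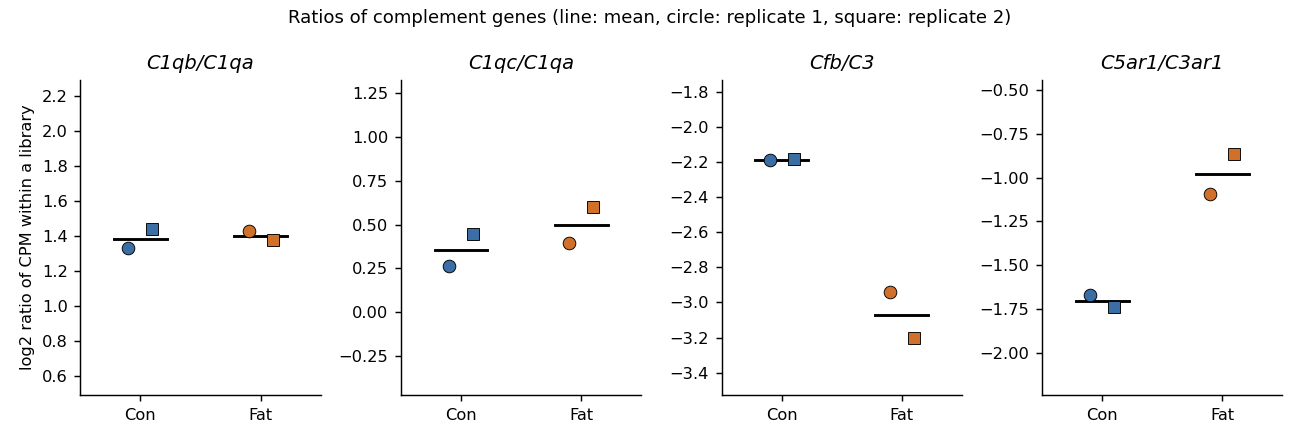
Log2 ratio of CPM of pairs of complement genes within each library, with the mean as a line and the 2 replicates of Con and of Fat as points; every panel spans the same number of log2 units. The groups overlapped for C1qb/C1qa and C1qc/C1qa, and did not for Cfb/C3, lower in Fat, and C5ar1/C3ar1, higher in Fat.

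Properdin, encoded by Cfp, stabilises the convertase that factor B forms. Cfp measured 290.2 and 247 CPM in Con and 243 and 235 CPM in Fat, so Con replicate 2 stood only just above the Fat libraries. It was not called (log2 fold change -0.16, 95% interval -0.35 to 0.02, limma adjusted p = 0.262). Without Con replicate 2 the log2 fold change was -0.28 and the limma adjusted p was 0.0324. Neutrophils also carry properdin. Of the 6 neutrophil markers 5 were listed, their sum was 132 and 115 CPM in Con and 110.0 and 102 CPM in Fat, and none was called. The part of these cells in the values of Cfp was not tested.

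C4b encodes the C4 protein, which the classical and lectin pathways cleave. It was the least abundant of the 8, with 31 and 19 reads in Con and 16 and 12 reads in Fat. The exact Poisson 95% intervals, which cover counting error only, were 21.1 to 44.0, 11.4 to 29.7, 9.15 to 26.0 and 6.20 to 21.0 reads in that order. Those of Con replicate 2 and both Fat libraries overlapped. C4b passed the filter only through its Con libraries, at 0.914 and 0.506 CPM against 0.429 and 0.293 CPM in Fat, so that the order of its groups was fixed by the filter. It was not called (log2 fold change -0.78, 95% interval -1.64 to 0.08, limma adjusted p = 0.248), and 20.7% of its stretches of read length are shared with its near copy C4a. C4a was at a like level, between 0.777 and 1.03 CPM over the 4 libraries, and was not called either (log2 fold change -0.18, 95% interval -0.76 to 0.39).

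Of the receptors for the fragments of C3 and C5, those for C5a rose in Fat and that for C3a was not called. C3ar1, the receptor for the C3a fragment, measured 1045 and 1044 CPM in Con and 976 and 921 CPM in Fat. Both Fat libraries were slightly lower, and the gene was not called (log2 fold change -0.14, 95% interval -0.29 to 0.02, limma adjusted p = 0.252). C5ar1, the main receptor for the C5a fragment, measured 328 and 313 CPM in Con and 457 and 506 CPM in Fat. It rose by 0.58 on the log2 scale (SE 0.07, limma adjusted p = 0.00478), to 1.5-fold the Con mean, a call that was lost without the mean-variance trend (limma adjusted p = 0.0831). C5ar2, the second receptor for C5a, which does not couple to G proteins and lies beside C5ar1 on chromosome 7, measured 8.55 and 7.78 CPM in Con and 11.8 and 16.0 CPM in Fat. It rose by 0.75 (SE 0.15, limma adjusted p = 0.0236), a call that was lost without Fat replicate 2 (log2 fold change 0.53, limma adjusted p = 0.065), with TPM (limma adjusted p = 0.0734) and without the trend (0.125).

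Within a library, the ratio of C5ar1 to C3ar1 on the TPM scale was 0.526 and 0.502 in Con and 0.783 and 0.920 in Fat. C3ar1 thus remained the more abundant receptor per length in every library, by a smaller margin in Fat. On the log2 CPM scale the ratio differed by 0.72, without overlap between the groups (exact permutation p = 0.333, 0.667 after adjustment over the 4 ratios).

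Compared per length, the order of the 8 genes was the same in all 4 libraries, with no overlap between neighbours within Con or within Fat. C1qb was highest, followed by C1qc, with 1421 to 1979.7 TPM, and by C1qa, with 1032 to 1603 TPM. C3ar1 came next with 474 to 532 TPM and Cfp with 341 to 417 TPM. C3 followed at 66.4 and 46.3 TPM in Con and 26.8 and 20.3 TPM in Fat. Cfb lay below it with 27.2 and 19.0 TPM in Con and 6.44 and 4.05 TPM in Fat, and C4b was lowest with 0.120 to 0.371 TPM. In rank among all genes, C3 went from 2186th and 3027th in Con to 4794th and 5736th in Fat, and Cfb from 4694th and 5789th to 8919th and 9884th.

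The wider complement list held 56 genes, of which 45 were listed and 30 passed the filter. Of these 30, 6 were called lower (the 5 named above and C1ra) and 2 higher (C5ar1 and C5ar2), against 5.0% and 3.99% of all genes. The median log2 fold change of the 30 was -0.15, beside 0.01 for all genes tested. Without the 8 genes, 22 were left, with 1 called lower, 2 higher and a median of -0.09. The list was drawn up with earlier results of these data known, and the counts describe it without a test.

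**Figure D3:**
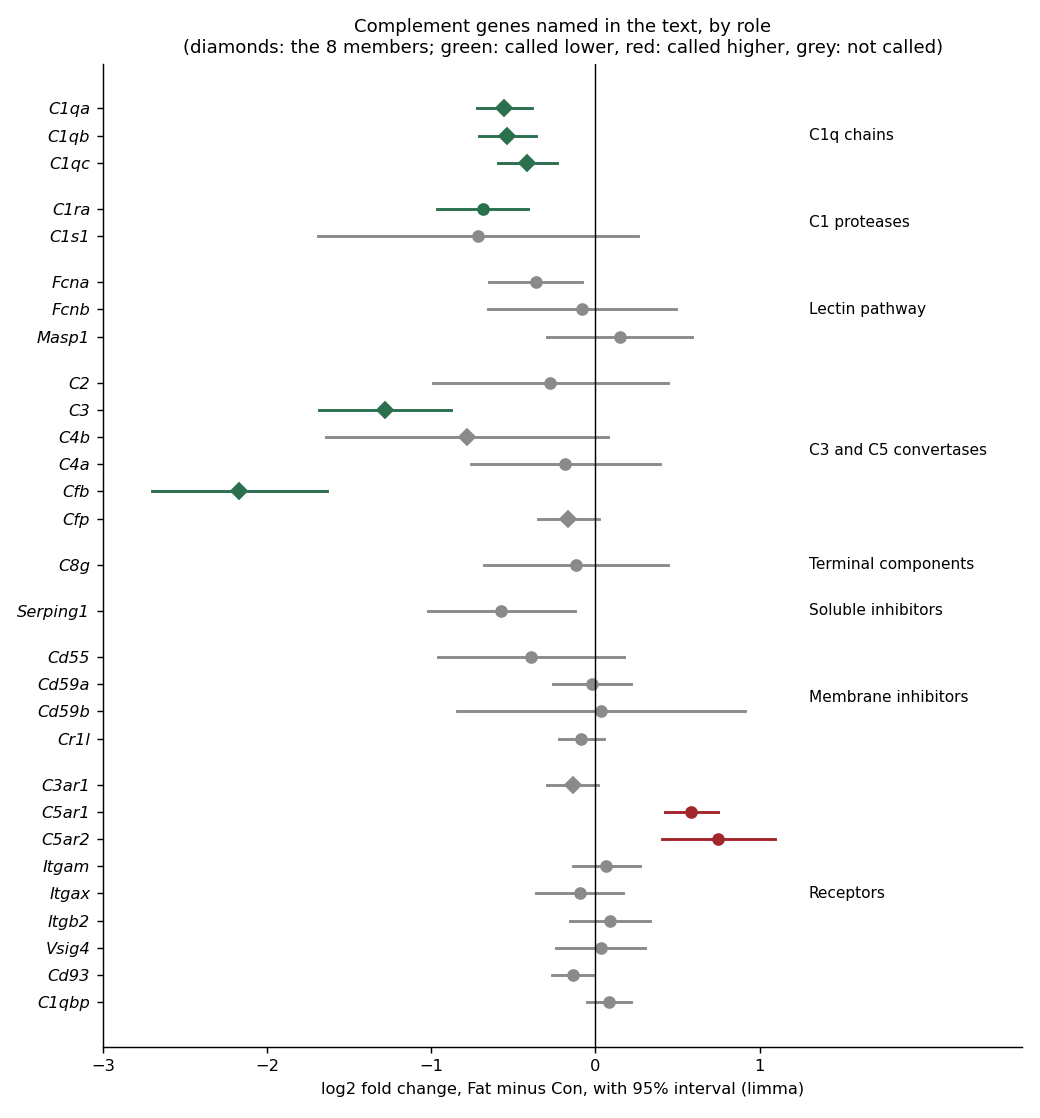
Log2 fold change, Fat minus Con, with its 95% interval from limma, of the complement genes named in the text that passed the filter, grouped by role, with diamonds for the 8 genes described here. The intervals of Cfb and C3 lay furthest below 0, and those of C5ar1 and C5ar2 lay above it.

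The lectin pathway recognises sugars on surfaces. Of its 8 genes on the list 3 passed the filter, and none was called: the ficolins Fcna and Fcnb had log2 fold changes of -0.36 (95% interval -0.65 to -0.08, limma adjusted p = 0.117) and -0.08 (-0.65 to 0.49), and the protease Masp1 had 0.15 (-0.29 to 0.59). Of the 7 terminal components, which form the membrane attack complex, only C8g passed, at 0.781 to 0.906 CPM. It was not called (log2 fold change -0.12, 95% interval -0.68 to 0.44).

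The inhibitors of complement described here were not called. Serping1, the inhibitor of the C1 proteases, measured 2.36 and 2.32 CPM in Con and 1.37 and 1.73 CPM in Fat (log2 fold change -0.57, 95% interval -1.02 to -0.13, limma adjusted p = 0.117). The membrane inhibitors Cd55, Cd59a, Cd59b and Cr1l had log2 fold changes from -0.39 to 0.03. The intervals of all 4 included 0, and the widest, of Cd59b, ran from -0.84 to 0.91.

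The other receptors were not called. Itgam, Itgax and Itgb2, which encode the chains of the integrin receptors for the C3 fragment iC3b, had log2 fold changes of 0.07 (95% interval -0.14 to 0.27), -0.10 (-0.36 to 0.17) and 0.09 (-0.16 to 0.33). Itgam and Itgb2 measured 2162 CPM or more in every library. Of the stretches of read length in Itgam, 76.2% are shared in GENCODE vM21 with the gene model Gm49368, which was not analysed here. Vsig4, a macrophage receptor for C3b, had 0.03 (-0.24 to 0.30), Cd93 had -0.14 (-0.27 to -0.01, limma adjusted p = 0.165) and C1qbp had 0.08 (-0.05 to 0.21).

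Under the filter lay 15 listed genes, C1rb, C1s2, Colec10, Colec11, Masp2, Cfd, Hc, C6, Cfhr2, Cpn1, Cpn2, Clu, Cd46, Csmd1 and Cr2. Cfd encodes factor D, which cleaves factor B and is best known as a product of fat cells. It had 0 and 1 reads in Con and 6 and 5 reads in Fat, too few for a fold. Cfd was also 1 of the 7 adipocyte markers, all of them listed, which together had 6 and 7 reads in Con and 421 and 238 reads in Fat (0.177 and 0.187 CPM against 11.3 and 5.81 CPM). Most of these Fat reads, 269 and 139, were of Car3. Of the 7, 2 passed the filter, Car3 and Cidec, and limma called both higher. They passed only through their Fat libraries, so that this direction was fixed by the filter. Adipoq and Lep, which define fat cells, had 0 reads in both Con libraries, which at 3 reads per library allows up to 0.0885 CPM. The part of adipocyte RNA in the Cfd reads was not tested. The 5 lymphocyte markers summed to 18.9 to 20.3 CPM in Con and 15.5 to 16.9 CPM in Fat, and the 4 endothelial markers to 4.64 to 6.55 CPM and 6.78 to 7.54 CPM, with none called in either list.

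**Figure D4:**
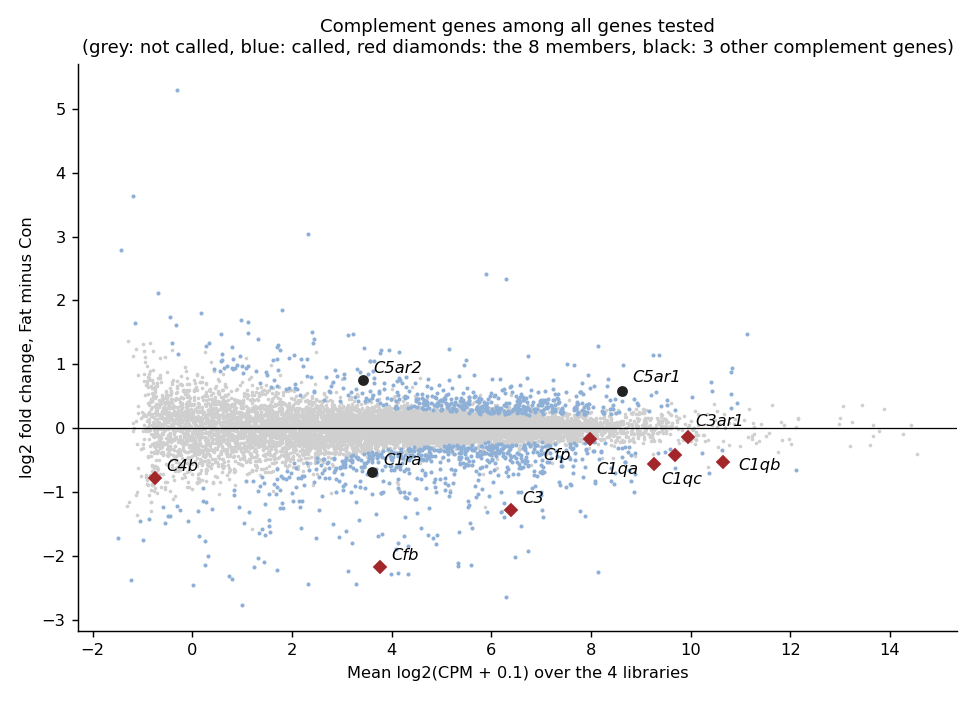
Log2 fold change, Fat minus Con, against the mean log2(CPM + 0.1) of each of the 12470 genes tested, with called genes in blue, the 8 complement genes as diamonds and C1ra, C5ar1 and C5ar2 in black. The C1q chains lay among the most abundant called genes, and Cfb among the genes with the largest falls, with a log2 fold change of -2.17.

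Genes with the most similar pattern over the 4 libraries were found by the Euclidean distance between log2 values centred on each gene's mean. Those nearest to C1qa were Top2a (distance 0.0232), Aurkb (0.0238) and Mtap7d3 (0.0383). C1qb came 26th (0.0882) and C1qc 414th (0.240), so the neighbouring C1q chains were not the closest. Nearest to C3 were P2ry12 (0.0522), Gda (0.144) and Marco (0.144), and Cfb came 580th. Those nearest to Cfb were Irg1 (0.0828), Gbp5 (0.243) and Ifit1 (0.271), and C3 came 70th. The distances describe these 4 libraries and were not tested.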

How the data were processed

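Poly(A) RNA of 2 Con and 2 Fat macrophage samples was sequenced by the authors from stranded libraries as single reads. The authors deposited CPM (reads relative to the library total, with a further scaling factor per library) and TPM, which also corrects for gene length. Each had its own table of the same 17013 genes. No column was left out. GRCm build 39 is named in the submitters' processing notes; aligner, counter and annotation are not given in the sources used here, and the authors compared the groups with edgeR.

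Groups came from the sample titles. Whole reads were recovered from the CPM steps for 100% of values (within 0.001 of a read), and the further factors, 0.990 to 1.01, equalled edgeR's TMM factors of these reads. As CPM are not counts, limma 3.58.1 (R 4.3.3) with a mean-variance trend was fitted to log2(CPM + 0.1) of the 12470 genes reaching 0.5 CPM in 2 or more libraries, two-sided, with Benjamini-Hochberg adjustment. edgeR 4.0.16 (quasi-likelihood test, 1138 genes called; exact test) and DESeq2 1.42.0 on the recovered reads were alternatives, beside those of the closing section. The scripts were tested on simulated data. Ratios within libraries were compared by exact permutation tests (scipy 1.17.1).

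The 8 members and all gene, marker and motif lists were chosen with earlier results of these data known. Named were the 8 genes, every gene of the complement list that passed the filter except 1 that is not reported here, the 3 nearest patterns of C1qa, C3 and Cfb, and markers at 0 or of highest level. Promoters (RefSeq, GRCm38.p6) cover 250 bases before each start, and are not on the build of the files. Shared stretches are 75-base windows, taken every 5 bases, that occur in GENCODE vM21 transcripts of another gene. This need not be the annotation behind the deposited values, which holds older symbols such as Emr1 and Irg1.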

Additional observations from a re-analysis of the deposited data

How the results depend on the processing

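With 2 libraries a group, the number of calls depended on how the spread was shared among genes. limma called 1122 genes in the fit reported (498 higher), 407 with TPM (237 higher), 31 without the mean-variance trend and 529 to 1131 with 1 library left out. Of the 8 genes it called 5, against 3 of the 7 tested with TPM, 0 without the trend and 4 to 6 with 1 library left out, and of the complement list 8, against 4, 0 and 7 to 9. Without the trend, 5 of the 8 genes and 12 of the 30 tested genes of the list had an unadjusted limma p under 0.05. Of all 12470 genes tested, 1400 had such a p and were lower in Fat, and 1239 had one and were higher. The quasi-likelihood test of edgeR called 1138 genes. The calls lost without the trend were C1qa (-0.55, adjusted p = 0.0848), C1qb (-0.54, 0.0831), C1qc (-0.41, 0.113), C3 (-1.28, 0.0971), Cfb (-2.17, 0.0831), C1ra (-0.69, 0.0989), C5ar1 (0.58, 0.0831) and C5ar2 (0.75, 0.125), and with TPM C1qc (-0.38, 0.0705) and C3 (-1.25, 0.0504), as well as C1ra (-0.65, 0.0583) and C5ar2 (0.78, 0.0734). Leaving out 1 library gave log2 fold changes of -0.50 to -0.33 for C1qc and -0.28 to -0.049 for Cfp. C4b fell under the filter with TPM and with a mean of at least 5 CPM, and DESeq2 gave it no adjusted p.

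Of 110 values of the 8 genes under all alternatives, 101 kept their direction and side of the threshold, 8 lost a call, 1 gained one and 0 turned. The 101 include the DESeq2 value of C4b, which kept its direction but had no adjusted p. Of 298 values of the other complement genes, 14 turned, none of them of a called gene. These were Cd59a with TPM (0.0089), Cd59b with edgeR's quasi-likelihood (-0.0133) and exact (-0.0109) tests, and leave-one-out values of Fcnb (-0.24 to 0.077), Masp1 (-0.079 to 0.37), C2 (-0.73 to 0.19), Cd59a (-0.11 to 0.068), Cd59b (-0.32 to 0.38), Itgax (-0.28 to 0.087), Itgb2 (-0.038 to 0.21) and Vsig4 (-0.059 to 0.12). The C1qb to C1qa ratio, for which leaving out libraries was added after seeing the data, ran from -0.035 to 0.073. The causes were not tested.

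The labels number the replicates without saying that a number marks a shared source. Deviations from the group means correlated at 0.20 between libraries of the same number (0.339 over 9760 genes of at least 5 CPM). With the replicate block, 2520 genes were called (1278 higher), 5 of the 8 and 9 of the list, on 1 residual degree of freedom.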

Other observations

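A pair of genes beside members of the complement list, chosen after their values were seen, also differed between the groups. C1rl, a gene related to the C1 proteases that precedes C1ra in the RefSeq order, measured 7.46 and 6.10 CPM in Con and 3.43 and 2.61 CPM in Fat. Both Fat libraries were lower, and the log2 fold change was -1.15 (SE 0.17, limma adjusted p = 0.0104). Itgad, the integrin alpha chain gene that follows Itgax, measured 3.89 and 3.31 CPM in Con and 6.62 and 6.20 CPM in Fat. Both Fat libraries were higher, and the log2 fold change was 0.82 (SE 0.14, limma adjusted p = 0.0144), while its neighbours Itgam and Itgax were not called. Whether Itgad differed from them was not tested.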
